A study of Mus musculus with 4 samples.

Results

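The ryanodine receptor release unit is the set of proteins through which heart muscle cells let calcium out of the sarcoplasmic reticulum, the internal calcium store. Its genes were taken as the 10 rows of the deposited expression table with the names Ryr2, Casq2, Trdn, Asph, Jph1, Jph2, Hrc, Sri, Fkbp1a and Fkbp1b, out of 48432 gene rows. The rule matches gene names and uses no value threshold, but the list was drawn up with earlier results of these data known. All 10 were found, and all 10 carried the status OK in both groups.

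Messenger RNA came from cardiomyocytes, freed by Langendorff perfusion from the hearts of mice on a C57BL x FVB background. The 4 libraries formed 2 groups of 2. One group carried the genotype label MHC, and the other the genotype label RbFox2, described by the submitters as Rbfox2_OE, in which the RNA-binding splicing regulator RBFOX2 is overexpressed; the series title names its non-muscle isoform. Both groups ate a doxycycline diet for 3 days, so the control mice had the drug as well. The labels spell out neither the abbreviation MHC nor the promoter driving the transgene, and they give no age, no sex and no statement that the libraries of a group came from separate mice.

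Expression is given as FPKM, a fragment count normalised to transcript length and library size. The authors pooled the libraries of each group into 1 FPKM per gene, and their software set a lower and upper bound on it whose level is not stated. There is no value per library, so the spread between libraries is unknown and no test between the groups was possible. Differences are described by the plain ratio, by the log2 ratio (Rbfox2 OE over MHC) with a pseudocount of 1 FPKM, and by whether the bounds of the groups overlap. A gene is called here when its log2 ratio is at least 1 in size (2-fold) or, separately, when its bounds do not overlap. The sequencing depth is unknown. As a check of the labels, Rbfox2 itself stood at 14.7 FPKM (bounds 10.4 to 19.0) in MHC and at 293 FPKM (bounds 214 to 373) in Rbfox2 OE. The cardiomyocyte marker Tnnt2, a thin-filament gene, was abundant in both groups, at 10609 and 6917 FPKM, whereas Myh6 was listed at 0 in both because the software gave it no estimate.

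In a cardiomyocyte, calcium entering through L-type channels of the T-tubule opens ryanodine receptors in the facing sarcoplasmic reticulum, and the released calcium triggers contraction. RYR2 is the cardiac release channel. Calsequestrin (Casq2) and the histidine-rich protein HRC bind calcium in the lumen, triadin (Trdn) and junctin, a product of Asph, join calsequestrin to the channel, and junctophilins (Jph2 and Jph1) tether the reticulum to the T-tubule. FKBP12 (Fkbp1a), FKBP12.6 (Fkbp1b) and sorcin (Sri) bind the channel from the cytosolic side.

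Transcripts of the channel and 3 of its partners were lower in Rbfox2 OE, and the other genes of the unit had overlapping bounds. Ryr2, Asph and Casq2 passed the 2-fold threshold, Jph2 lay just short of it with separate bounds, and Trdn, Jph1, Hrc, Sri, Fkbp1a and Fkbp1b did not differ beyond their bounds. Genes were compared when their FPKM, averaged over the groups, reached 1. Of the 9 members that did, 3 were lower at 2-fold and 0 were higher, where 10% of the 11697 genes compared were lower and 6.97% were higher. By separate bounds 4 members were lower and 0 higher, where 9.33% of all genes were lower and 6.67% higher. Fkbp1b, at a mean of 0.477 FPKM, was the member under the 1 FPKM filter. The median log2 ratio was -0.47 over the 9 members and -0.06 over all genes compared.

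**Figure D1:**
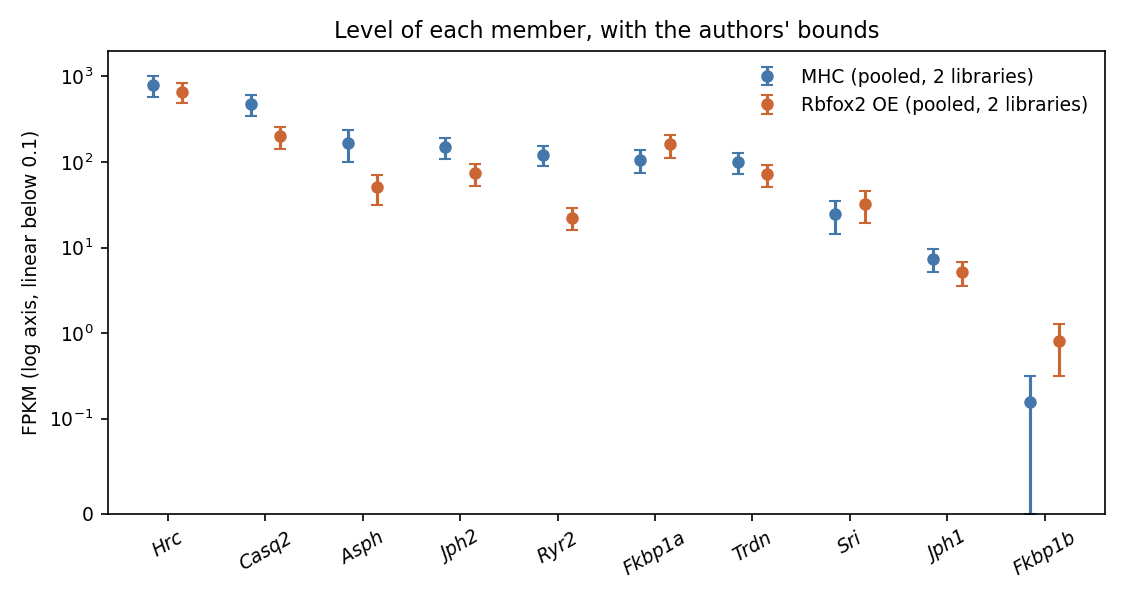
FPKM of each member in MHC (blue) and Rbfox2 OE (orange), 1 pooled value per group from 2 libraries, with the authors' lower and upper bounds as bars; the axis is logarithmic above 0.1 FPKM and linear below. The bars of Ryr2, Asph, Casq2 and Jph2 do not overlap between the groups, and those of the other 6 members do.

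The transcript of the release channel differed most of the 10 members. Ryr2 (ENSMUSG00000021313, GRCm38 chromosome 13, 11553102 to 12106945, a protein-coding gene on the minus strand) had 122 FPKM in MHC, with bounds of 89.2 to 154. In Rbfox2 OE it stood at 22.4 FPKM, with bounds of 15.8 to 29.0. The MHC level was 5.43 times the Rbfox2 OE level, and the groups did not overlap. The log2 ratio was -2.39, and the bounds gave a range of -3.21 to -1.59. A log2 ratio this low or lower was found in 0.598% of all genes compared. The range of Ryr2 overlapped those of Casq2, Asph and Jph2, and it did not overlap those of Trdn, Jph1, Hrc, Sri, Fkbp1a and Fkbp1b. The related channels Ryr1, the skeletal muscle form, and Ryr3 stayed near 0, at 0.0622 and 0.110 FPKM in MHC and at 0.0215 and 0.0844 FPKM in Rbfox2 OE. Ryr2 overlaps 3 annotated non-coding genes, of which 1 is in the table and was listed at 0 in both groups.

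The 250 bases before the annotated start of Ryr2 and of 3 other members are shown here, because these genes differ in how far they moved although all serve the same structure. Sequences are from RefSeq on GRCm38.p6, which held an entry for 7 of the 10 members; Trdn, Asph and Jph1 had none. Each is written 5′ to 3′ on the gene's strand. Capitals mark matches, on either strand, to the E-box letters CANNTG and to CTAAAAAT, a core of the MEF2 motif; no match of one motif overlapped a match of the other here.
Ryr2, chr13:12106946-12107195, minus strand: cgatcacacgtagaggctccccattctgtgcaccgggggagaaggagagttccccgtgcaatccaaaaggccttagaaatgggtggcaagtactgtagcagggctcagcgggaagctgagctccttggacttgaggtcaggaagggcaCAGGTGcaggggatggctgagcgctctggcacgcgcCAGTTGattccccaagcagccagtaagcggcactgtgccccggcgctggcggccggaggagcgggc
Casq2, chr3:102086165-102086414, plus strand: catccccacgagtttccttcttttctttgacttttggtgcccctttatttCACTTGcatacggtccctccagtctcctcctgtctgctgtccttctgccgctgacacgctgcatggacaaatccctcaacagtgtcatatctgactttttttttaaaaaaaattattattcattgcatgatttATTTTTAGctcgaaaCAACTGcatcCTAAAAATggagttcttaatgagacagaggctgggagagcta
Jph2, chr2:163397994-163398243, minus strand: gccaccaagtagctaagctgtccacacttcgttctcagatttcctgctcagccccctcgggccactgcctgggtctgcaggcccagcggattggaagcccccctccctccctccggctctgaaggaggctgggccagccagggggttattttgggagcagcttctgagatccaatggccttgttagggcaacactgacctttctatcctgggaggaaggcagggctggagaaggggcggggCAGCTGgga
Hrc, chr7:45335019-45335268, plus strand: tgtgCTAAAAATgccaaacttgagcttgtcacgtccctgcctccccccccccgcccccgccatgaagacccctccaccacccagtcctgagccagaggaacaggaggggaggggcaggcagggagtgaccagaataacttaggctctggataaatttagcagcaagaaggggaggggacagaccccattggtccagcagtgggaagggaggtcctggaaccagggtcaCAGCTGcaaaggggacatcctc

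The upstream sequence of Casq2 was A+T-rich, with 41.6% G+C, and held 2 matches to CTAAAAAT. That of Hrc held 1 such match, and those of Ryr2, Jph2, Sri, Fkbp1a and Fkbp1b held 0. Over all 32851 upstream sequences of this length, 1.01% held the motif. The G+C share was above the median of all, 52.4%, in Fkbp1b (64.8%), Ryr2 (63.2%), Jph2 (62.0%), Hrc (59.6%) and Fkbp1a (58.4%), and below it in Sri (43.6%) as in Casq2. E-box letters were common, in 66.2% of all upstream sequences, and were found in 6 of the 7 members, Fkbp1b being the exception. The TATA letters TATAAA (12.4% of all) and the GATA letters AGATAA (9.99% of all) were found in 0 of the 7. Of the carriers of CTAAAAAT, Casq2 was called lower and Hrc was not, and no link between motif and difference was tested.

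RBFOX proteins bind RNA at the letters UGCAUG, so the 3′ untranslated regions were searched for TGCATG on the transcript strand. The search used 1 annotated coding transcript per gene, the one with the longest 3′ untranslated region. Whether the transcript searched for Asph encodes junctin was not examined. Ryr2, Asph and Sri held 2 matches each, Fkbp1b held 1, and Casq2, Trdn, Jph1, Jph2, Hrc and Fkbp1a held 0. Each match is shown with up to 12 bases on each side and the motif in capitals, since it is the sequence to which the overexpressed protein is known to bind.
Ryr2, chr13:11553920-11553949, minus strand: cagaagataatgTGCATGacaaacaccttt
Ryr2, chr13:11553608-11553637, minus strand: gaaataattcatTGCATGtttattatgcaa
Asph, chr4:9452684-9452713, minus strand: gtcatgctaggaTGCATGaactgtgccaac
Asph, chr4:9450520-9450549, minus strand: tctgacttcctaTGCATGggggctgggatc
Sri, chr5:8068312-8068341, plus strand: tttttaataatgTGCATGctttcattttac
Sri, chr5:8068483-8068512, plus strand: ccagtgcaaacaTGCATGcacacacacaat
Fkbp1b, chr12:4833400-4833429, minus strand: cattttgtgtgaTGCATGtagtagccattc

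The motif was present in the 3′ untranslated regions of 32.2% of the 20981 genes searched. Among genes in the same decile of 3′ untranslated length, it was present in 40.8% for Ryr2 (1414 bases), 80.5% for Asph (4216 bases), 50.6% for Sri (1820 bases) and 15.4% for Fkbp1b (493 bases). The 4 genes with a match lay on both sides of 0: Ryr2 and Asph were lower in Rbfox2 OE, and Sri and Fkbp1b had higher values with overlapping bounds. Introns, where RBFOX proteins act on splicing, were not searched.

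Among the genes for proteins of the lumen, Casq2 was lower and Hrc was not called. Casq2 (ENSMUSG00000027861, chromosome 3, 102086415 to 102146514, plus strand), the main calcium buffer of the cardiac reticulum, stood at 473 FPKM (bounds 344 to 602) in MHC. In Rbfox2 OE it stood at 199.7 FPKM (bounds 144 to 256). The groups did not overlap, and the MHC level was 2.37 times the Rbfox2 OE level, a log2 ratio of -1.24 (range -2.06 to -0.43). The skeletal muscle calsequestrin Casq1 had overlapping bounds, with 21.1 FPKM in MHC and 28.9 FPKM in Rbfox2 OE. Casq1 thereby made up 4.26% of the summed calsequestrin FPKM in MHC and 12.7% in Rbfox2 OE. Other skeletal muscle genes were near 0: of 8 listed markers, 7 had a mean under 1 FPKM, the exception being Ckm, which the heart also expresses.

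Hrc (ENSMUSG00000038239, chromosome 7, 45335290 to 45338974, plus strand), whose product buffers luminal calcium and binds triadin, was the most abundant member in both groups. It stood at 796 FPKM (bounds 582 to 1011) in MHC and at 667 FPKM (bounds 487 to 847) in Rbfox2 OE, with wide overlap. Its log2 ratio was -0.26 (range -1.05 to 0.54).

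The transcripts of the anchoring proteins were uneven. Asph (ENSMUSG00000028207, chromosome 4, 9448069 to 9669344, minus strand) encodes an aspartate beta-hydroxylase of the endoplasmic reticulum and, by alternative splicing and promoters, the short proteins junctin and junctate. It stood at 168 FPKM (bounds 98.9 to 238) in MHC and at 50.8 FPKM (bounds 31.2 to 70.4) in Rbfox2 OE. The bounds did not overlap, the MHC level was 3.32 times the Rbfox2 OE level, and the log2 ratio was -1.71 (range -2.89 to -0.48). Its bounds were among the widest of the unit, at 41.3% of the value in MHC and 38.5% in Rbfox2 OE, against 26.8% and 29.4% for Ryr2. The annotation lists 20 transcripts of Asph, 15 of them protein-coding with coding lengths of 220 to 2223 bases. The gene-level value sums these, so junctin cannot be told apart from the hydroxylase. Clvs1, a coding gene on the opposite strand, overlaps Asph and stood at 4.79 FPKM in MHC and 1.09 FPKM in Rbfox2 OE, and whether fragments were counted by strand is not given in the sources used here.

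Trdn (ENSMUSG00000019787, chromosome 10, 33080554 to 33476709, plus strand), the partner of junctin in binding calsequestrin, stood at 99.8 FPKM (bounds 71.9 to 128) in MHC. It stood at 71.7 FPKM (bounds 51.5 to 91.9) in Rbfox2 OE, so the groups overlapped, and its log2 ratio was -0.47 (range -1.29 to 0.35). The junctin locus and the triadin gene, whose products share a role, therefore fell on different sides of both call rules, although their ranges overlapped each other and the difference between them was not tested.

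Jph2 was lower and Jph1 was not called. Jph2 (ENSMUSG00000017817, chromosome 2, 163336242 to 163397993, minus strand), the main cardiac junctophilin, stood at 148 FPKM (bounds 107 to 189.5) in MHC and at 74.4 FPKM (bounds 53.1 to 95.7) in Rbfox2 OE. The bounds were separate. The MHC level was 1.995 times the Rbfox2 OE level, and the log2 ratio of -0.99 (range -1.82 to -0.16) missed the 2-fold threshold by a margin far inside that range. Jph1 (ENSMUSG00000042686, chromosome 1, 16964560 to 17097889, minus strand), the junctophilin typical of skeletal muscle, stood at 7.40 FPKM (bounds 5.13 to 9.67) in MHC and at 5.20 FPKM (bounds 3.56 to 6.83) in Rbfox2 OE. Its bounds overlapped and its log2 ratio was -0.44. Jph2 made up 95.3% of the FPKM of the pair in MHC and 93.5% in Rbfox2 OE. The neuronal junctophilins Jph3 and Jph4 had values at or below 0.0660 FPKM in both groups. The upper bound of Jph3 was far above its value, at 2.61 FPKM in MHC and 0.812 FPKM in Rbfox2 OE.

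The members whose products bind the channel from the cytosol, Fkbp1a, Fkbp1b and Sri, had higher values in Rbfox2 OE than in MHC, and none was called. This did not hold for partners of the channel as a class. Of the 15 listed regulators and partners described below, 5 had log2 ratios above 0. Fkbp1a (ENSMUSG00000032966, chromosome 2, 151542483 to 151561692, plus strand), which encodes the widely expressed FKBP12, stood at 106 FPKM (bounds 74.5 to 138) in MHC and 160.5 FPKM (bounds 111 to 209.6) in Rbfox2 OE. Its log2 ratio was 0.59 (range -0.31 to 1.48). Sri (ENSMUSG00000003161, chromosome 5, 8046078 to 8069379, plus strand), encoding the calcium-binding protein sorcin, stood at 24.6 FPKM (bounds 14.5 to 34.7) in MHC and 32.5 FPKM (bounds 19.2 to 45.8) in Rbfox2 OE. Its log2 ratio was 0.39 (range -0.82 to 1.60), and both groups overlapped widely.

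Fkbp1b (ENSMUSG00000020635, chromosome 12, 4833174 to 4841591, minus strand) encodes FKBP12.6, known as a partner of the cardiac receptor. Its transcript was scarce, at 0.156 FPKM (bounds 0 to 0.319) in MHC and 0.799 FPKM (bounds 0.318 to 1.28) in Rbfox2 OE. The bounds touched over a sliver, and the log2 ratio of 0.64 with a pseudocount of 1 FPKM became 1.81 with a pseudocount of 0.1. Fkbp1a made up 99.9% of the summed FPKM of the pair in MHC and 99.5% in Rbfox2 OE.

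**Figure D2:**
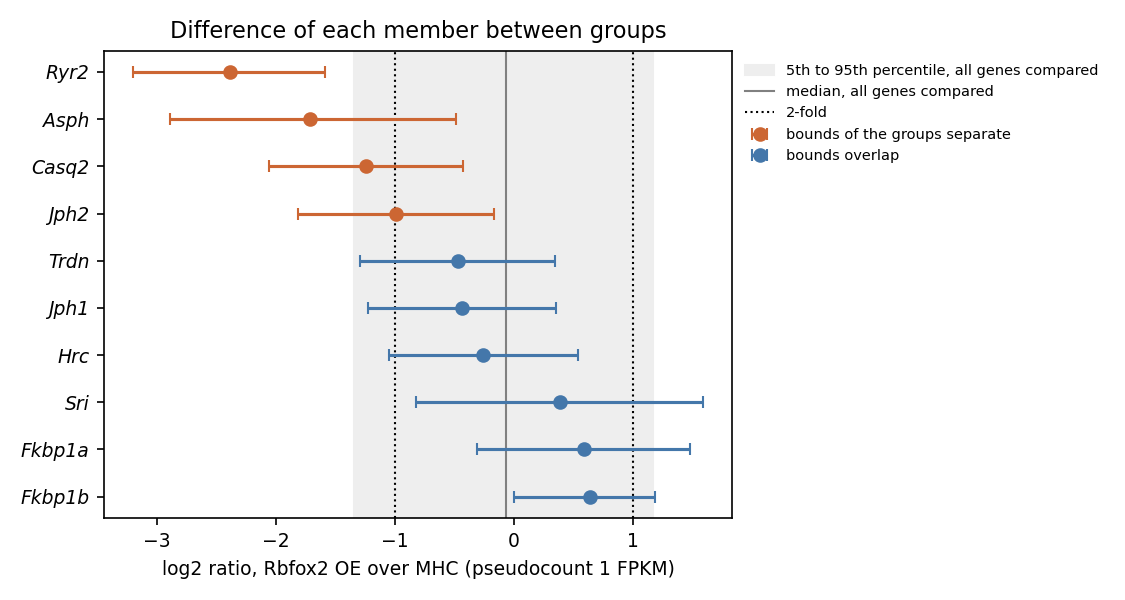
Log2 ratio (Rbfox2 OE over MHC) for each member (pseudocount 1 FPKM), with the range given by the nearest and farthest pair of bounds as bars; orange marks genes whose bounds are separate, the grey band runs from the 5th to the 95th percentile of all genes compared (-1.35 to 1.17), and dotted lines mark 2-fold. The point of Ryr2, at -2.39, and that of Asph, at -1.71, lie below the band.

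Because members moved unequally, the order of their levels changed. In MHC the order from the highest FPKM was Hrc, Casq2, Asph, Jph2, Ryr2, Fkbp1a, Trdn, Sri, Jph1 and Fkbp1b. From Asph to Trdn each neighbour in that order had overlapping bounds, so these 5 genes were not ordered beyond their bounds, and Hrc overlapped Casq2. In Rbfox2 OE the order was Hrc, Casq2, Fkbp1a, Jph2, Trdn, Asph, Sri, Ryr2, Jph1 and Fkbp1b. Ryr2 stood at rank 5 in MHC and at rank 8 in Rbfox2 OE, where its bounds overlapped those of Sri above it but not those of Jph1 below. FPKM is scaled by transcript length, which allows levels of different genes to be set side by side.

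The other members are given next relative to the channel transcript; since Ryr2 had the lowest ratio between groups of the 10, each of these quotients had to be higher in Rbfox2 OE. For Casq2, Asph and Jph2 the range of the log2 ratio overlapped that of Ryr2, as given above. The FPKM of Casq2 was 3.88 times that of Ryr2 in MHC and 8.90 times in Rbfox2 OE. The same ratio to Ryr2 was 6.54 and 29.7 for Hrc, 1.22 and 3.32 for Jph2, 0.819 and 3.20 for Trdn, and 1.38 and 2.27 for Asph. For Fkbp1a it was 0.873 and 7.15, an 8.19-fold difference that reflects both a lower Ryr2 value and a higher Fkbp1a value. These ratios concern transcripts, carry no replicate error and say nothing of protein.

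Genes that neighbour or regulate the unit were compared from 3 lists of 15 genes, drawn up by role. Among 15 regulators and partners of the ryanodine receptor (kinases, phosphatases, anchors and others), 3 were lower at 2-fold, 0 were higher, and 1 was lower with separate bounds, beside 10% and 9.33% of all genes lower by these rules. That gene was Akap6, which encodes the anchor mAKAP, at 28.9 FPKM in MHC and 10.7 FPKM in Rbfox2 OE, a log2 ratio of -1.35. The median of this list was -0.41.

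Of 15 listed genes of the sarcoplasmic reticulum membrane and lumen, 12 could be compared, of which 2 were lower by each rule and 0 were higher, with a median of -0.07; the shares of all genes lower were again 10% and 9.33%. Pln, encoding the calcium pump inhibitor phospholamban, had a log2 ratio of -2.42. Tmem38a, encoding the cation channel TRIC-A that balances charge during release, stood at 263 FPKM (bounds 190.1 to 337) in MHC and 84.2 FPKM (bounds 59.6 to 109) in Rbfox2 OE, a log2 ratio of -1.63. Its relative Tmem38b stood at 8.67 and 8.85 FPKM. The pump gene Atp2a2 had no estimate in MHC and was left out of the counts of this list. It remains among the 11697 genes behind the shares of all genes, where its MHC value of 0 makes it count as higher. With only genes estimated in both groups, 813 instead of 815 of all genes were higher at 2-fold, and 1172 were lower as before. Calr and Canx, chaperones of the endoplasmic reticulum in all cells, had log2 ratios of -0.04 and 0.01.

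On the T-tubule side of the junction, 9 of 15 listed genes were lower at 2-fold, 8 of them with separate bounds, and 0 were higher, against the same shares of all genes. The median was -1.30. The 6 with the lowest log2 ratios among those called by both rules were Ank2 (-3.09), Cacnb2 (-3.02), Slc8a1 (-2.73), Kcnq1 (-2.63), Tcap (-2.37) and Cacna1c (-2.19). They encode an ankyrin that anchors membrane transporters, a beta subunit of the L-type channel, the sodium-calcium exchanger, a repolarizing potassium channel, the Z-disc protein telethonin and the L-type channel pore. The ranges of these 6 genes overlapped each other, so they were not ordered beyond their bounds. That of Ank2 was the widest of the 6, at -5.63 to -0.64. Bin1, which shapes T-tubules, had a positive log2 ratio of 0.82, with overlapping bounds and values of 1.92 FPKM in MHC and 4.16 FPKM in Rbfox2 OE.

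**Figure D3:**
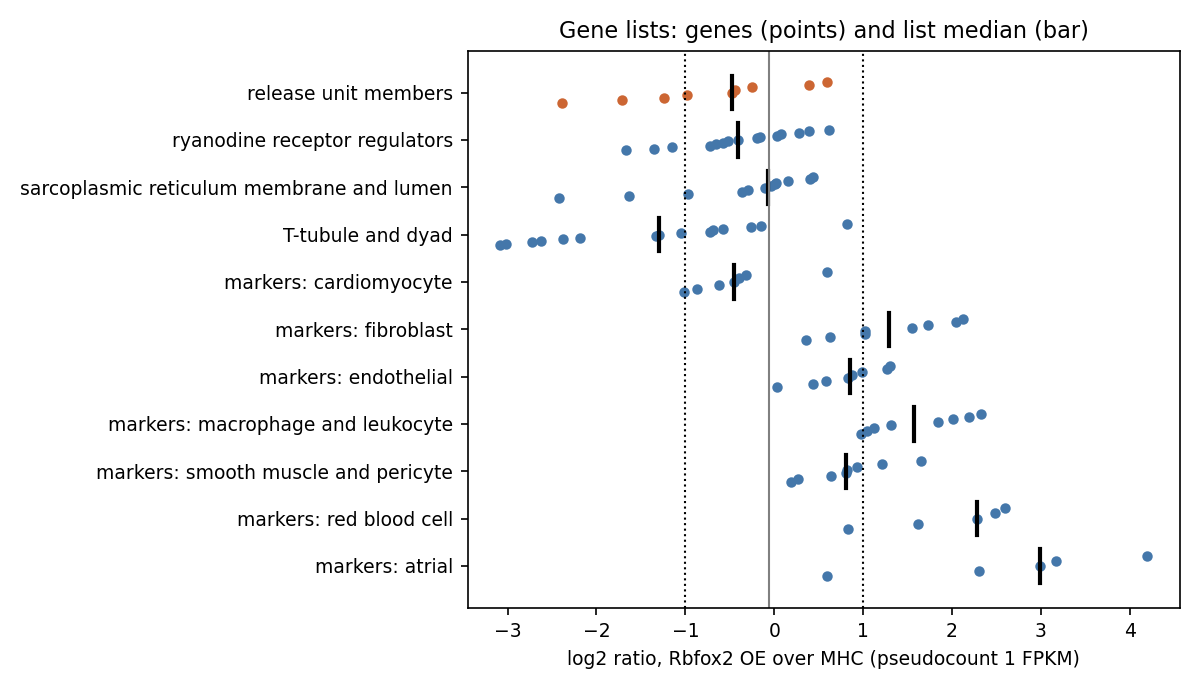
Log2 ratio (Rbfox2 OE over MHC, pseudocount 1 FPKM) for the members (orange) and for genes of the other lists (blue), 1 point per gene that was estimated in both groups and averaged at least 1 FPKM; black bars are list medians, the grey line is the median of all genes compared and dotted lines mark 2-fold. Most T-tubule genes and the lowest members lie left of the median, and the fibroblast, endothelial, leukocyte, smooth muscle, red blood cell and atrial markers plotted lie right of it.

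Markers of cardiomyocytes, of other cell types and of the atria also had different values in the groups. In bulk RNA, fewer cells of a type and less RNA per cell cannot be told apart, and which cells a marker's RNA came from is not seen. Of 7 cardiomyocyte markers with an estimate, 6 had log2 ratios below 0 and 1 was lower at 2-fold, with a median of -0.46 and a lowest value of -1.01 (Tnni3). By point values, Ryr2, Asph and Casq2 had log2 ratios below that of every one of these 7 markers. The bounds did not set them apart, since the range of Tnni3, -1.85 to -0.18, overlapped those of Ryr2, Asph and Casq2. The other 6 members compared lay between the point values of Tnni3 and Ttn. That upper end rested on Ttn alone, at 0.60 (range -0.77 to 2.57), and the next highest marker was Myl3 at -0.32. Higher at 2-fold were 6 of 8 fibroblast markers, 2 of 8 endothelial markers, 7 of 8 macrophage and leukocyte markers, 2 of 8 smooth muscle and pericyte markers, 4 of 5 red blood cell markers and 4 of 5 atrial markers. All of the markers on these lists had log2 ratios above 0, and none was listed at 0 in either group. Over all genes compared, 10% were lower and 6.97% higher at 2-fold. The cardiomyocyte count of 1 of 7 lower at 2-fold was near the share of all genes. By separate bounds 2 of these 7 markers, Actn2 and Tnni3, were lower and 0 higher, beside 9.33% and 6.67% of all genes. The summed FPKM went from 213 in MHC to 504 in Rbfox2 OE for the fibroblast list, from 224 to 416 for the endothelial list and from 87.9 to 316 for the macrophage and leukocyte list. It went from 147 to 328 for the smooth muscle and pericyte list and from 56.6 to 295 for the red blood cell list. For the atrial list it went from 245 to 3159.6, in Rbfox2 OE mostly Nppa, and whether atrial cells were the source was not tested. For the 7 compared cardiomyocyte markers and Myh6, which was listed at 0, the sum went from 50024 to 34204 FPKM. The part of these shifts in the values of the release unit was not tested.

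Gene length also moved with the result. Among 11092 protein-coding genes compared, the decile with the largest gene span (118899 bases or more) had a median log2 ratio of -0.41, with 22.9% of its genes lower at 2-fold. In the decile with the smallest span those values were 0.06 and 4.86%. Ryr2, Asph, Trdn and Jph1 fell in the decile with the largest span. Trdn (396156 bases) and Jph1 (133330 bases) had log2 ratios close to that decile's median, and Ryr2 (553844 bases) and Asph (221276 bases) lay well below it. Casq2 and Jph2, with spans of 60100 and 61752 bases, fell in a decile with a median of -0.12 and 11.5% lower at 2-fold. By transcript length the gradient was smaller, with medians of -0.01 in the shortest decile and -0.12 in the longest, which holds Ryr2 (16814 bases, 105 exons) and Asph (6694 bases). The part of gene span in these differences was not tested.

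**Figure D4:**
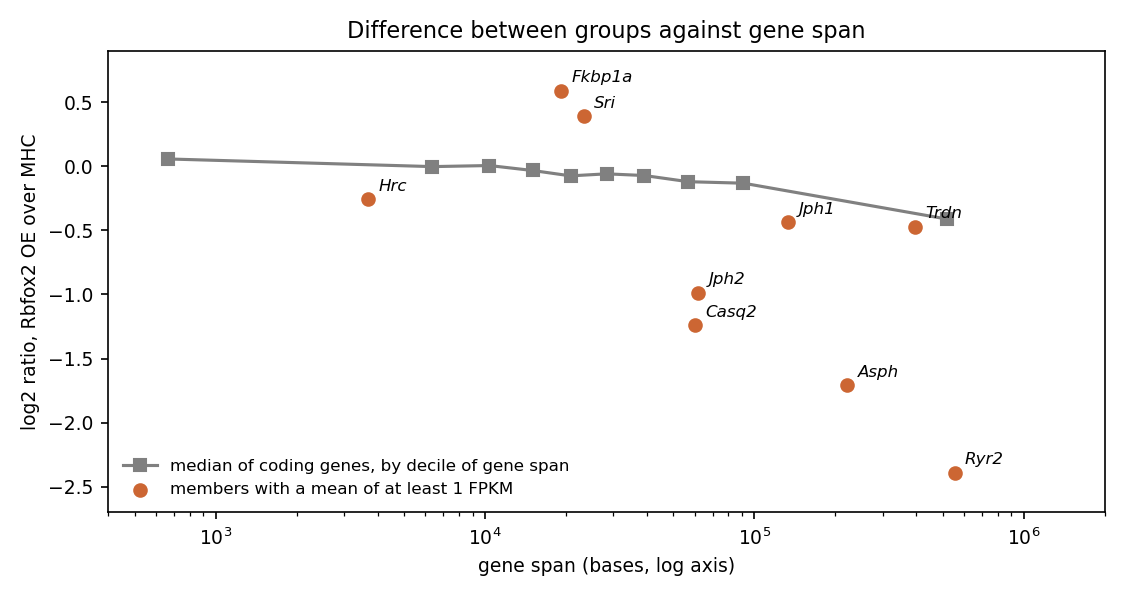
Log2 ratio (Rbfox2 OE over MHC) against gene span (log axis, bases) for the 9 members compared (orange); grey squares are medians of protein-coding genes in deciles of span, each at the geometric middle of its decile. Trdn and Jph1 lie near the median of the decile with the largest span, and Ryr2 and Asph lie below it.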

How the data were processed

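RNA of isolated mouse cardiomyocytes was sequenced from 4 stranded poly(A) TruSeq libraries, 2 per group, grouped by the title labels. The deposited values are FPKM, pooled by the authors with Cuffdiff to 1 value per gene and group, with bounds in FPKM, per the file headers. The submitters' processing notes list bcl2fastq 2.17.1.14, Trimmomatic, STAR 2.4.2a, Picard 1.119, HTSeq, DESeq2 and Cuffdiff 2.2.1 and the builds GRCm38 and mm10, without their roles. The annotation, the normalization mode and the use of strand are not given in the sources used here. FPKM divides by transcript length and by mapped fragments, so a shift in a few abundant genes moves all others, and Cuffdiff shares fragments among overlapping genes. Depth is unknown, and no counting intervals or floors could be given.

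From these values the log2 ratio (pseudocount 1 FPKM) was computed with pandas 2.3.3 for the 11697 genes averaging at least 1 FPKM. Rows sharing 1 of 110 names were summed. With 1 pooled value per group no p-value was computed. Unused columns of per-sample values numbered 0. Gene models and coordinates came from GENCODE M21 (GRCm38), in which 99.2% of the table's gene identifiers were found, and upstream sequences from RefSeq (GRCm38.p6). Selenon was matched by its identifier under its older name, and Strit1, on the reticulum list, is not analysed here. All members were named, and of the other lists up to 6 genes called by both rules, plus paralogues. Genes named besides, as Tmem38b, Calr, Canx, Bin1, Atp2a2 and single markers, were chosen after their values were seen. Members and lists were chosen with earlier results of these data known. Alternatives covered the pseudocount, the filter, the fold, the status and the scaling. The calculation was tested on simulated data.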

Additional observations from a re-analysis of the deposited data

How the results depend on the processing

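No paired analysis was possible because libraries were merged before deposit, so the replicate numbers carry no values; leaving out each library was likewise not run, and how far libraries of a group differ limits every result here. Of 110 values recomputed, 97 stayed within the range of their bounds, within the middle of the members' own values for their median, or, for counts, within 1.5 times, and 13 moved. Of the log2 ratios of members and their median, 0 changed sign. A pseudocount cannot change the sign of a member's ratio, so for single members only the changes of scale could have done so. Counts have no sign, and the turned split over all genes given below is among the 97. Fkbp1b moved to 1.81 with a pseudocount of 0.1, which shrinks low ratios less. The number of members called lower went from 3 to 1 (Ryr2) at 4-fold, and that of members higher from 0 to 1 (Fkbp1a) at 1.5-fold. Regulators called lower numbered 5 at 1.5-fold and 0 at 4-fold, and reticulum genes 1 at 4-fold. Over all genes, 1938 were higher and 2582 lower at 1.5-fold, 136 and 154 at 4-fold, and 304 and 559 with a pseudocount of 5; 492 were higher with a minimum average of 5 FPKM, where fewer genes were compared. Rescaling without mitochondrial and the 10 most abundant genes added at most 0.16 to log2 ratios, and less to those of genes with low FPKM. It moved the median gene from -0.06 to 0.07. The split over all genes turned from 815 higher and 1172 lower to 1060 and 913. Under this rescaling the same 3 members passed 2-fold, with Ryr2 at -2.24, Asph at -1.56 and Casq2 at -1.09, and 4 had separate bounds.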

Other observations

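The FKBP family, to which 2 of the members belong, was compared as a whole by gene name after the values were seen. Of 15 genes, 13 averaged at least 1 FPKM, of which 0 were called in either direction by either rule, and their median log2 ratio was -0.02. Over all genes compared, 10% were lower and 6.97% higher at 2-fold, and 9.33% and 6.67% by separate bounds. With so few genes, a count of 0 is not read as a trait of the family. Fkbp5, a glucocorticoid-induced co-chaperone, had the highest log2 ratio, 0.88, at 15.7 FPKM in MHC and 29.7 FPKM in Rbfox2 OE. Fkbp4, a co-chaperone of steroid receptors, had the lowest, -0.74, at 229.6 and 137 FPKM.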
